A study of Mus musculus with 43 samples.

Results

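The brush border is the layer of microvilli that covers the apical face of proximal tubule cells and carries most of their transporters. Its structural and scaffold proteins are represented here by 10 genes, taken by name from the expression table of the 3 parts of the female proximal tubule: Vil1, Ezr, Espn, Cdhr2, Cdhr5, Ush1c, Myo7b, Slc9a3r1, Misp and Tmigd1. These 10 genes were found among the 54532 genes of the table, 1 row each. They are a list of names, to which no threshold on a measured value was applied. The tubules came from female C57BL/6 mice aged 6 to 8 weeks, with no treatment named in the labels. They were microdissected by hand into S1, S2 and S3, the successive parts of the tubule from the glomerulus onward, with 2 to 5 tubules per sample. The table holds 1 value per gene and segment, in TPM, a transcript abundance per transcript length that is scaled to the same total in each column. Behind it are 6 S1 libraries, 6 S2 libraries and 7 S3 libraries, with no value per library. There is thus no SD, no test and no replicate check on any difference, and read depth is unknown. Several libraries share a number in their titles, with 2 different numbers in S1, 3 in S2 and 4 in S3. S1 and S2 share 0 of these numbers. A difference between S1 and S2 thus cannot be told apart from a difference between title numbers.

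A microvillus is a bundle of parallel actin filaments wrapped in plasma membrane. Villin, espin, plastins and MISP bundle the filaments, and ezrin ties them to the membrane through PDZ scaffolds such as NHERF1, which also hold transporters in place. Neighbouring microvilli are linked at their tips by the cadherins CDHR2 and CDHR5. Inside the tip, harmonin (Ush1c), ANKS4B, the motor myosin VIIB and its light chain CALML4 anchor these cadherins to actin. Most of this is known from the intestine, where the same proteins build the enterocyte brush border.

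Most of the scaffold was present at similar levels along the tubule, and 3 genes were not. Vil1, Ezr, Espn, Cdhr2, Cdhr5, Ush1c and Slc9a3r1 differed by less than 2-fold between their highest and lowest segment. Tmigd1 was 146-fold higher in S2 than in S1, and Misp was 26.7-fold higher in S3 than in S1. Myo7b went the other way and was 3.98-fold higher in S1 than in S3. Differences are given on the log2(TPM + 1) scale, where 1 stands for 2-fold, the threshold used throughout. By that measure 3 of the 10 genes (30.0%) were apart between some pair of segments, against 33.3% of the 16053 genes with at least 1 TPM in a segment and 30.6% of genes with at least 10 TPM. The share of the 10 genes is thus close to that of the table. The median range between highest and lowest segment was 0.72 for the 10 genes, 0.71 for all genes compared and 0.62 for genes of at least 10 TPM.

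**Figure D1:**
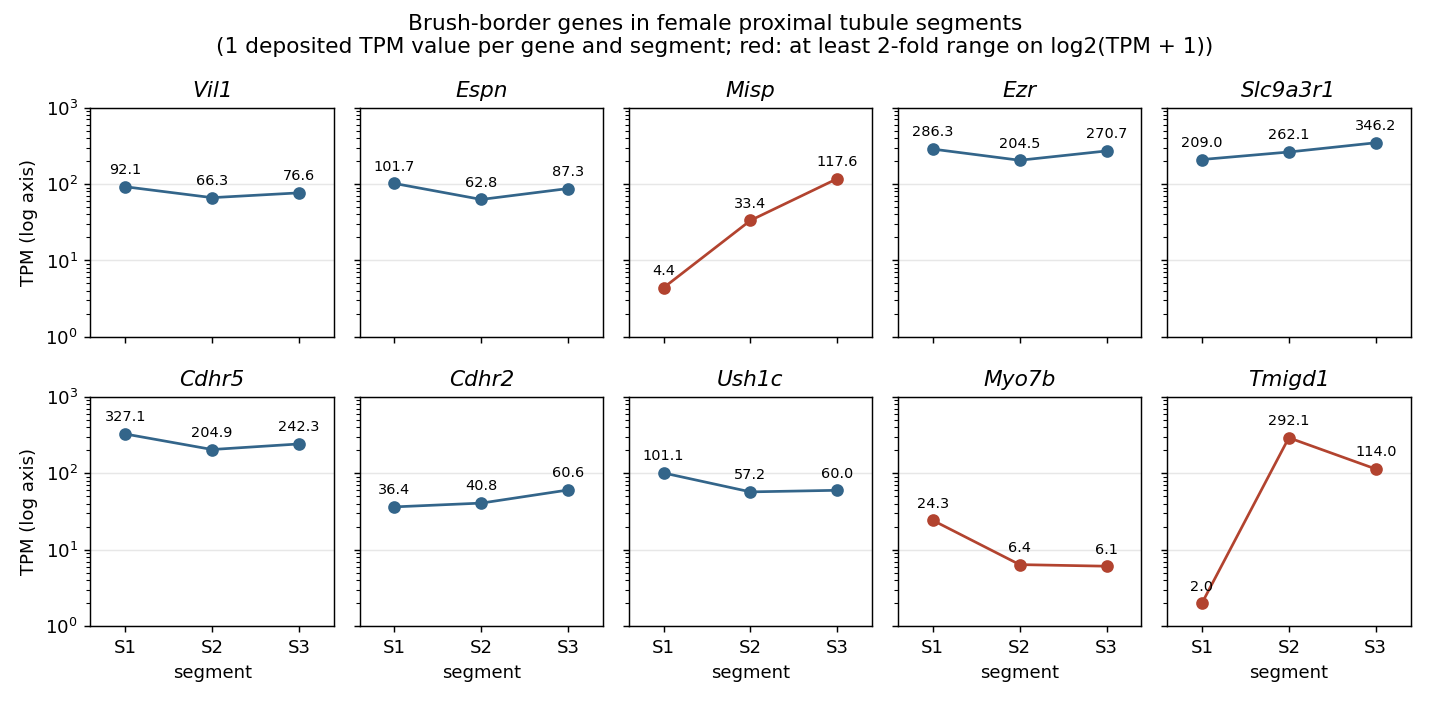
TPM of the 10 brush-border genes in S1, S2 and S3 of the female proximal tubule, on a log axis, with 1 deposited value per gene and segment and no error available. Misp, Myo7b and Tmigd1, in red, spanned at least 2-fold, while the other 7 genes stayed between 36.4 and 346 TPM in every segment.

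Together the 10 genes made up 0.118% of S1 TPM, 0.123% of S2 TPM and 0.138% of S3 TPM. Without Misp, Tmigd1 and Myo7b the other 7 summed to 1154, 898.6 and 1144 TPM (S1, S2, S3), lowest in S2. The median level of all 10 genes was 96.6, 64.5 and 101 TPM (S1, S2, S3), against 5.70, 6.90 and 5.80 TPM for all genes compared. In S1 the order from high to low was Cdhr5, Ezr, Slc9a3r1, Espn, Ush1c, Vil1, Cdhr2, Myo7b, Misp and Tmigd1. In S2 Tmigd1 was the highest of the 10 and Myo7b the lowest. In S3 Slc9a3r1 was the highest and Myo7b again the lowest. Neighbours in these orders can be close, as with Espn and Ush1c in S1 (102 and 101 TPM), and without replicates their order cannot be told from noise.

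RefSeq promoter windows, 250 bases before to 50 bases after a transcript start (GRCm38.p6), were used for 8 of the 10 genes, in 11 windows. Misp and Myo7b, which both had a 2-fold range, were not covered. The 11 windows were searched on both strands for GTTAAT, a 6-letter core of the site of the tubule factor HNF1. They were also searched for CAAAGTNCA, a form of the HNF4 site. The HNF1 core was found in 1 of the 11 windows, that of Cdhr2, against 7.10% of 32851 windows of the same length in the table. The HNF4 letters were in none of the 11, against 1.41% of all windows. Among 5 partner genes also searched, the window of Anks4b held 2 HNF1 cores and 1 HNF4 match, which do not overlap. The first of 2 Pdzk1 windows held 1 HNF4 match, from base 15 after the start, and no other partner window held a match. The windows of Cdhr2 and Anks4b are shown because they carry the HNF1 cores, and those of Tmigd1 because that gene had the widest range of the 10. Capitals mark the matches, and a match is a string of letters and not a shown binding site.
Cdhr2, chr13:54701213-54701512, plus strand, with the HNF1 core from base -54 relative to the start: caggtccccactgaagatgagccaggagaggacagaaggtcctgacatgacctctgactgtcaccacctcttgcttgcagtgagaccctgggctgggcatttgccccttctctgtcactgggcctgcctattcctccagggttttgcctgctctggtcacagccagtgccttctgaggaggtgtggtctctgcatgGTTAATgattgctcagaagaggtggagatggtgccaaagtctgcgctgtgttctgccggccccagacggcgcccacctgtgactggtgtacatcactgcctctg
Anks4b, chr7:120173608-120173907, plus strand, with HNF1 cores from bases -217 and -24 and the HNF4 match from base -59: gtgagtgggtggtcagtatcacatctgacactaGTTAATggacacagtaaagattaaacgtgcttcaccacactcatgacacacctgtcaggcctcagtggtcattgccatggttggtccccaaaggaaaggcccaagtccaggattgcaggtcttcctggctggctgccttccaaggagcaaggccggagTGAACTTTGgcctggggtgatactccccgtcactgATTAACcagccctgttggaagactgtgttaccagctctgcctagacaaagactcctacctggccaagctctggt
Tmigd1, first start, chr11:76890870-76891169, plus strand, no match: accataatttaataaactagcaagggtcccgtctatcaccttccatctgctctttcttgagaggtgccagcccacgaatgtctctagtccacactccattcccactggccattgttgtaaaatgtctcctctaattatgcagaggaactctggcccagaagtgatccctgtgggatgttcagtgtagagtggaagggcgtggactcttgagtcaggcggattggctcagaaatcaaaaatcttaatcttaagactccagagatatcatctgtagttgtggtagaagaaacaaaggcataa
Tmigd1, second start, chr11:76901909-76902208, plus strand, no match: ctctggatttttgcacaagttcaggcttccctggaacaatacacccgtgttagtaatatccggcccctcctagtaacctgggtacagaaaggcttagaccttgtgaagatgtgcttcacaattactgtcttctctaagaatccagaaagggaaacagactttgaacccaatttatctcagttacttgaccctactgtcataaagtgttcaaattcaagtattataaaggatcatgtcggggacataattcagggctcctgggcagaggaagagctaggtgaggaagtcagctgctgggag
Tmigd1 has 2 annotated starts, and a value per gene does not say which of them was used in which segment.

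The genes of the actin core were compared first. Vil1, which encodes villin, an actin bundler that can also sever filaments, was at 92.1 TPM in S1, 66.3 TPM in S2 and 76.6 TPM in S3. Espn, which encodes the bundler espin, was at 102 TPM in S1, 62.8 TPM in S2 and 87.3 TPM in S3. Both were highest in S1 and lowest in S2, and neither reached 2-fold in any contrast (0.47 for Vil1 and 0.69 for Espn, S1 minus S2). Their ratio was nearly constant, with 0.906 Vil1 transcripts per Espn transcript in S1, 1.06 in S2 and 0.877 in S3. Misp (chromosome 10, 79821019 to 79830452), an actin bundler that sits at the rootlets of microvilli in intestinal cells, was at 4.4 TPM in S1, 33.4 TPM in S2 and 118 TPM in S3. It was thus 7.59-fold higher in S2 than in S1 and 3.52-fold higher in S3 than in S2. On the log2 scale Misp differed by -2.67 (S1 minus S2), -4.46 (S1 minus S3) and -1.79 (S2 minus S3). Among the 10 genes compared, Misp alone was at least 2-fold higher in the later segment at both steps, and in S3 it stood above Vil1 and Espn, whereas in S1 it was far below them.

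The linkers between filament and membrane differed by less than 2-fold. Ezr, which encodes ezrin, was at 286 TPM in S1, 204.5 TPM in S2 and 271 TPM in S3. Slc9a3r1, which encodes the PDZ scaffold NHERF1, was at 209 TPM in S1, 262 TPM in S2 and 346 TPM in S3. Slc9a3r1 was highest in S3 and Ezr in S1, so the number of Ezr transcripts per Slc9a3r1 transcript was 1.37, 0.780 and 0.782 (S1, S2, S3). The S1 and S3 levels of each gene differed by 0.08 for Ezr and -0.73 for Slc9a3r1 (log2, S1 minus S3).

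The adhesion complex at the tips was not uniform in its transcripts. Cdhr5, the mucin-like cadherin, was at 327 TPM in S1, 205 TPM in S2 and 242 TPM in S3. Its partner Cdhr2, known as protocadherin-24, was at 36.4 TPM in S1, 40.8 TPM in S2 and 60.6 TPM in S3. Cdhr5 transcripts outnumbered those of Cdhr2 in every segment, by 8.99 to 1 in S1, 5.02 to 1 in S2 and 4.0 to 1 in S3. Ush1c, which encodes the PDZ scaffold harmonin, was at 101 TPM in S1, 57.2 TPM in S2 and 60.0 TPM in S3. With 0.81 for S1 minus S2 it was the nearest to the 2-fold line of the 7 genes below it. Myo7b (chromosome 18, 31959234 to 32036931), the motor of the complex, was at 24.3 TPM in S1, 6.4 TPM in S2 and 6.1 TPM in S3. S1 stood apart and S2 and S3 lay close together, with 1.77 (S1 minus S2), 1.83 (S1 minus S3) and 0.06 (S2 minus S3). The number of Ush1c transcripts per Myo7b transcript was 4.16 in S1, 8.94 in S2 and 9.84 in S3.

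Tmigd1 (chromosome 11, 76891120 to 76916587) encodes an adhesion molecule with immunoglobulin domains that binds NHERF1 and NHERF2 at the brush border. It was at 2.0 TPM in S1, 292 TPM in S2 and 114 TPM in S3, and so was the lowest of the 10 genes in S1 and the highest in S2. The differences were -6.61 (S1 minus S2), -5.26 (S1 minus S3) and 1.35 (S2 minus S3). S2 was 2.56-fold above S3. Of its binding partners, Slc9a3r1 (NHERF1) differed by -0.33 for S1 minus S2, with its highest level in S3. Slc9a3r2 (NHERF2) differed by -2.25 and, like Tmigd1, was highest in S2 and lowest in S1.

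Taken by contrast, 1 of the 10 genes (Myo7b) exceeded 2-fold in favour of S1 over S2, beside 6.62% of all genes compared, and 2 (Misp and Tmigd1) were lower, beside 17.7%. The same genes made up the counts for S1 against S3, 1 higher beside 10.5% and 2 lower beside 13.1%. These contrasts share the S1 value. Between S2 and S3, Tmigd1 was higher in S2, beside 8.74% of all genes, and Misp lower, beside 2.24%. The median difference of the 10 genes was 0.48 (S1 minus S2), 0.15 (S1 minus S3) and -0.32 (S2 minus S3), and over all genes compared it was -0.18, -0.01 and 0.12. Set against those medians, the 7 steady genes lay between -0.15 and 0.99 (S1 minus S2), between -0.72 and 0.75 (S1 minus S3) and between -0.68 and -0.19 (S2 minus S3). Column scaling moved some of them across 2-fold. With median-of-ratios scaling over genes of at least 1 TPM, which moved the all-gene median of S1 minus S2 to 0, Ush1c reached 1.01. With factors taken over every gene above 0, which moved that median to 0.48, Vil1, Ezr, Espn, Cdhr5 and Ush1c also passed 2-fold for S1 minus S2 (1.17 to 1.51), Cdhr2 passed it for S2 minus S3 (-1.07) and Tmigd1 no longer did (0.83). Cdhr2 turned sign for S1 minus S2 under both of these scalings, and Slc9a3r1 under the second.

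**Figure D2:**
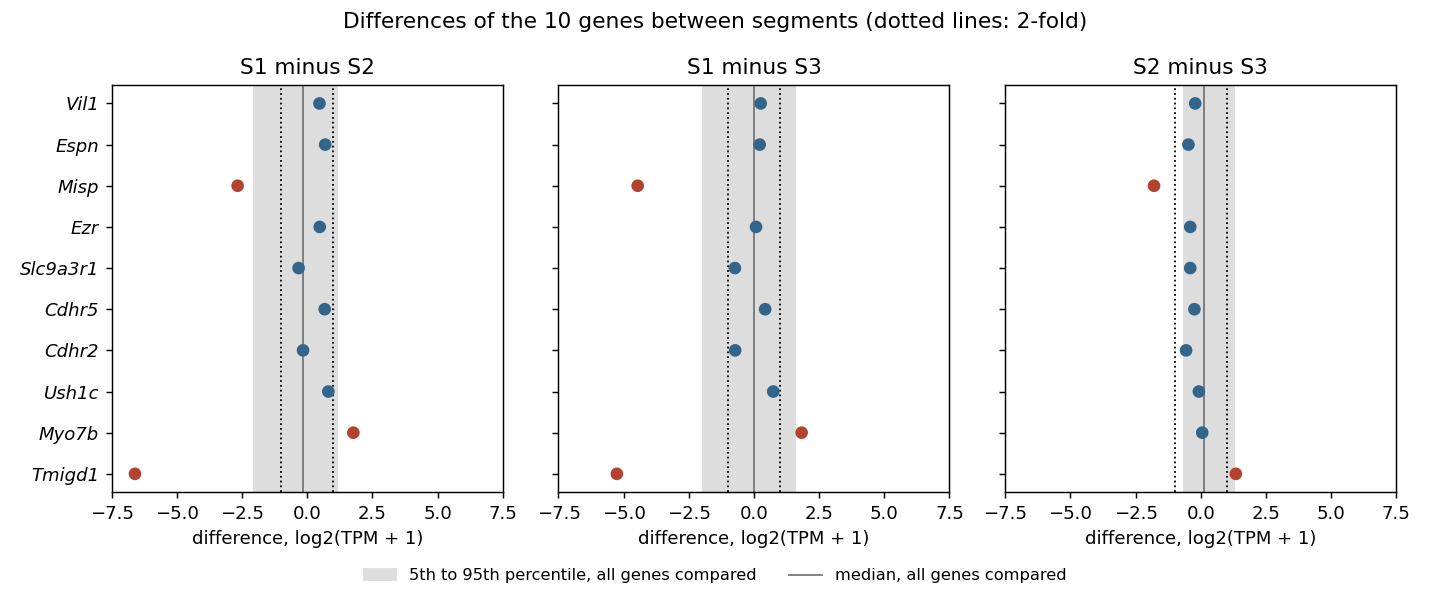
Differences between segments in log2(TPM + 1) for the 10 genes, with the 5th to 95th percentile of all genes compared in grey, their median as a line and 2-fold as dotted lines. Tmigd1 (-6.61 and -5.26) and Misp (-2.67 and -4.46) lie to the left of the grey band for S1 minus S2 and S1 minus S3, and Myo7b (1.77 and 1.83) lies to its right.

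Close relatives of these genes showed which member of each family predominated. Of the summed TPM of ezrin, radixin and moesin, Ezr made up 72.0%, 68.4% and 81.1% in the 3 segments in turn. Radixin (Rdx) was at 47.5, 42.9 and 33.0 TPM (S1, S2, S3). Moesin (Msn), which is also abundant in endothelium, was at 63.6, 51.4 and 30.0 TPM, 2.12-fold higher in S1 than in S3 a log2 difference that was as low as 0.97 under the alternative settings. Villin has a relative that was not steady. Vill, which encodes the villin-like protein, was at 2.4 TPM in S1, 140 TPM in S2 and 200.4 TPM in S3, a difference of -5.38 for S1 minus S2 and -5.89 for S1 minus S3. Vil1 thus supplied 97.5% of the pair's transcripts in S1, 32.1% in S2 and 27.7% in S3. Espnl, the espin-like gene, was at 0.1 TPM or less throughout. Myo7a, the paralog of Myo7b that works in the stereocilia of the inner ear, was at 15.3, 10.2 and 11 TPM. Myo7b accordingly made up 61.4% of class VII myosin transcripts in S1, 38.6% in S2 and 35.7% in S3. Shares and ratios of genes within a column do not change when the column is rescaled by a factor.

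Among the PDZ scaffolds, Pdzk1 (NHERF3), which gathers many apical transporters, was the most abundant with 1482 TPM in S1, 1075 TPM in S2 and 1165 TPM in S3. It made up 80.7%, 71.8% and 70.8% of the summed TPM of NHERF1 to NHERF4 in S1, S2 and S3, while Slc9a3r1 made up 11.4%, 17.5% and 21.0%. Pdzd3 (NHERF4) was at 133, 101 and 108 TPM. Slc9a3r2 (NHERF2) was the one scaffold with a peak in S2, at 11.8 TPM in S1, 60.0 TPM in S2 and 26.7 TPM in S3. Its difference was -2.25 for S1 minus S2. Pdzk1ip1 (MAP17), a small membrane protein that binds PDZK1 and is a partner of the glucose transporter SGLT2, was at 3543 TPM in S1, 1081 TPM in S2 and 393 TPM in S3. It was 9.02-fold higher in S1 than in S3, while the scaffold it binds differed by 0.35 on the log2 scale.

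**Figure D3:**
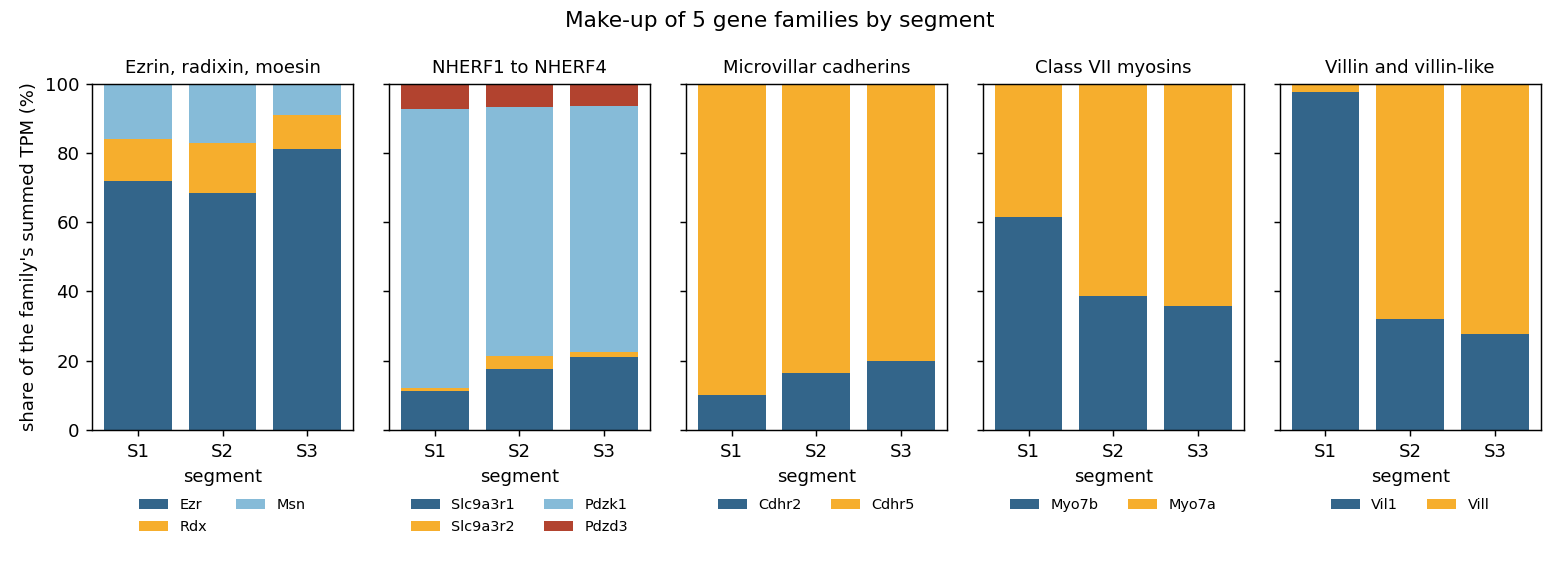
Share of each gene in the summed TPM of 5 families in S1, S2 and S3. Ezr and Pdzk1 predominated in every segment, while the lead passed from Vil1 (97.5% in S1) to Vill (67.9% in S2 and 72.3% in S3) and from Myo7b (61.4% in S1) to Myo7a (61.4% in S2 and 64.3% in S3).

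The other genes of the brush border came from 9 lists named by function, with 78 genes, of which 71 had at least 1 TPM in a segment. Of these 71, 32 (45.1%) differed at least 2-fold between some pair of segments, beside 33.3% of all genes compared. Under every alternative pseudocount and scaling, 20 of the 32 kept at least 1 of these differences. Of the 71, 5 were higher and 13 lower for S1 against S2, beside 6.62% and 17.7% of all genes compared. For S1 against S3 the numbers were 11 and 17, beside 10.5% and 13.1%. For S2 against S3 they were 5 and 2, beside 8.74% and 2.24%. The median differences of the 71 genes were -0.07, -0.11 and -0.09.

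The 2 further proteins of the tip complex differed from each other. Anks4b, its scaffold, was at 13.0 TPM in S1, 9.8 TPM in S2 and 10.8 TPM in S3. Calml4, the light chain of myosin VIIB, was at 614 TPM in S1, 1180.5 TPM in S2 and 1942 TPM in S3, 3.17-fold higher in S3 than in S1. Calml4 therefore ran against the motor it serves, Myo7b, which was highest in S1. The cadherins of the inner ear that correspond to CDHR2 and CDHR5, Cdh23 and Pcdh15, were at 1.6 TPM or less in every segment.

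In the list of actin, bundlers and cappers, S1 was 2-fold or more above S2 for 1 of 19 genes compared and below it for 4. Of all genes compared, 6.62% were above and 17.7% below. Against S3 the numbers for S1 were 2 above and 4 below, beside 10.5% and 13.1%. None of the 19 differed 2-fold between S2 and S3, where 8.74% of all genes were higher in S2 and 2.24% lower. Actb, the main cytoplasmic actin, was steady at 1795 TPM in S1, 1621 TPM in S2 and 1653 TPM in S3. Actg1, the other cytoplasmic actin, was at 422, 142 and 137 TPM, 2-fold or more above S2 and S3 in S1. Pls1, the plastin of the brush border, was at 63.2, 39.2 and 47.5 TPM, a profile with its low in S2 like those of Vil1 and Espn. The other plastins were lower. Pls3 was at 19.8, 11.3 and 5.9 TPM, and Lcp1, the plastin of leukocytes, at 2.6, 16.7 and 16.7. Vil1, Espn and Pls1 together supplied most of the transcripts of 6 bundlers in every segment (32.9%, 36.3% and 22.6% in S1). Eps8, which caps filament tips, was at 81.4, 142 and 150.0 TPM and its relative Eps8l2 at 98.0, 56.5 and 53.0, so that Eps8 made up 44.7% of the family's transcripts in S1, 69.9% in S2 and 71.6% in S3. Baiap2l1 (IRTKS), which recruits EPS8 to the tip, was at 6.6, 14.7 and 22.2 TPM.

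Of 13 myosin genes compared, 8 were at least 2-fold apart between some segments, beside 33.3% of all genes compared. Of these 8, 3 (Myo5a, Myh14 and Myl12a) stayed so under every alternative pseudocount and scaling. Myo5a, a motor that carries vesicles along actin, had the largest difference among these lists, at 0.5 TPM in S1, 110 TPM in S2 and 218 TPM in S3 (-7.19 for S1 minus S3). Myo5b, which moves apical recycling vesicles, was at 18.7, 27.3 and 41.5 TPM, and Myo6, the motor of endocytosis at the base of microvilli, was steady at 87.2, 68.9 and 66.8. Myo1a, the classical brush-border myosin of the intestine, was at 0.3 TPM or less. Other class I myosins were present, with Myo1c at 14.1, 34.0 and 27.4 TPM and Myo1d at 10.9, 4.7 and 4.7. Of the nonmuscle myosins, Myh14 was at 2.5, 15.1 and 22.7 TPM and the light chain gene Myl12a at 126, 223 and 409, while Myl6, the most abundant of the list, was at 485, 429 and 487.

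Among terminal web genes, the adducins were highest in S1. Add1 was at 73.7, 39.4 and 27.9 TPM (S1, S2, S3), and Add3 at 63.4, 19.0 and 13.0. Tpm1, a tropomyosin, was at 25.7, 51.5 and 87.8 TPM and Krt8, the keratin of simple epithelia, at 55.1, 54.0 and 87.0. The median of this list was -0.19 for S1 minus S3 and came to 0.00 under the scaling that raised it most. Of 9 apical polarity genes, 1 differed 2-fold between some segments, beside 33.3% of all genes compared. This was Stk11, which encodes the kinase LKB1, at 9.7, 18.2 and 20.9 TPM, and it fell short of 2-fold under other settings (-0.82). Rab11a, the GTPase of apical recycling, led that list with 325, 207 and 232 TPM.

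All 6 genes of the microvillus and junction membrane list were at least 2-fold apart between some segments, beside 33.3% of all genes compared. Of these 6, 4 stayed so under every alternative pseudocount and scaling. Prom1, which encodes prominin-1, a protein of microvillus tips, was at 129.5 TPM in S1, 75.4 TPM in S2 and 42.4 TPM in S3. Epcam, an adhesion molecule of epithelia, was at 0.2, 48.5 and 107 TPM, and Cgn, which encodes the tight junction protein cingulin, at 1.0, 10.8 and 15.0. Podxl, which encodes podocalyxin of podocytes and endothelium, was at 1.4, 13.4 and 3.1 TPM. Muc1 and Prom2 stayed at 2.3 TPM or less, and their 2-fold differences did not hold under every alternative setting (-0.52 and -0.26 at the least, S1 minus S3).

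**Figure D4:**
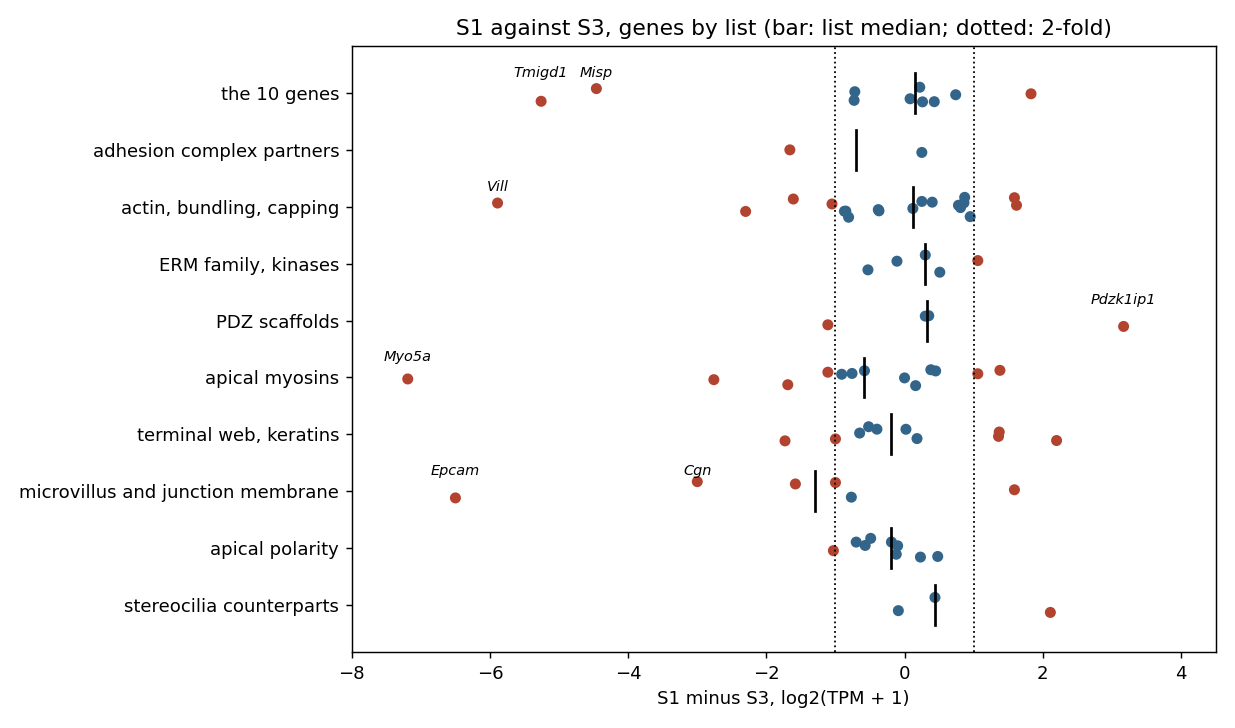
Difference between S1 and S3 in log2(TPM + 1) for the genes of each list with at least 1 TPM in a segment, with list medians as bars and 2-fold as dotted lines. Most genes lie within 2-fold, and Myo5a (-7.19), Epcam (-6.50), Vill (-5.89), Tmigd1 (-5.26) and Misp (-4.46) stand far to the left.

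Markers of other cells also differed between segments. All 12 proximal tubule markers listed were at 10 TPM or more in some segment. The 10 endothelial markers were each highest in S2, with summed levels of 75.0 TPM in S1, 700.6 TPM in S2 and 278 TPM in S3. Of the 10 immune markers 9 were highest in S2, with sums of 58.7, 320.5 and 98.6 TPM, and stromal markers summed to 12.1, 35.7 and 16.1. No endothelial or immune marker was at 0. Tmigd1, Slc9a3r2 and Podxl were also highest in S2, and Lcp1 was at the same level in S2 and S3. The part of these other cells in those results was not tested. Of the thick limb and distal tubule markers, Umod (0.2, 21.1 and 29.1 TPM) and Kng2 (1.0, 369 and 735) were higher in S2 and S3, like Misp, Epcam and Cgn. In the same list Slc12a3 was at 0.7, 2.0 and 3.0 TPM, while Slc12a1, Calb1 and Pvalb were at 1.0 TPM or less. The summed level of that list was 3.0, 393 and 768 TPM, mostly Kng2, and its part in those results was not tested. Collecting duct markers summed to 62.2, 14.0 and 1.4 TPM, mostly Aqp3 and Fxyd4, with Slc4a1 listed at 0 in S1 and S3 and Aqp2 at 0.5 or less. S1 was also the highest segment of Myo7b, and the part of these cells there was not tested. In such bulk samples fewer cells of a type and less RNA per cell cannot be told apart.

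For the 3 genes with a 2-fold range, the genes of most similar profile were sought among 7258 genes of at least 10 TPM, by the distance between the 3 log2(TPM + 1) values after centring each gene on its mean. Over 3 values such likeness is weak. For Myo7b, 183 genes lay within a distance of 0.5, and the nearest were Rps6ka1, Rab11fip5 and Hps1 (distances 0.0427, 0.0459 and 0.0459). For Misp 11 genes lay that near, led by Isg20 (0.5, 7.8 and 27.8 TPM), Defb1 (0.2, 4.9 and 20.3) and S100a11 (58.6, 395 and 1026). No gene lay within that distance of Tmigd1. Its nearest were mt-Tl1 at 0.755, a mitochondrial tRNA too short for a firm TPM, Wfdc2 at 0.811 (6.7, 445 and 380.5 TPM) and Cyp2j11 at 0.886 (2.6, 277 and 252).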

How the data were processed

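The authors deposited gene expression as TPM, with 1 value per gene and segment, rounded to 1 decimal, and the columns total 999907 (S1), 999988 (S2) and 999911 (S3). Per the labels' protocols, the libraries are from SMARTer cDNA cut with a Nextera kit and read from both ends. The labels mention neither molecular identifiers nor strand marking, so PCR copies and antisense reads may be included. Per the submitters' processing notes, the build is mm10, and STAR, RSEM, cutadapt, Bowtie2, Picard, SAMtools and MACS2 are listed with no role. The sources used here do not give the step that made 1 value out of several libraries. Depth is unknown from TPM, and intervals were therefore not computed.

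The table has 8 value columns. Only the female S1, S2 and S3 columns were used. The remaining 5 fit no RNA-seq group in the labels and entered no step, and the 24 libraries of ATAC-seq were not used here. The 16053 genes reaching 1 TPM in some segment were compared by differences of log2(TPM + 1). This pseudocount of 1 makes folds of low genes look smaller. Fold values quoted as such are plain TPM ratios, given where both levels reach 1 TPM. A gene was called where the log2 difference reached 1 in either direction. Named are all 10 genes, partners and paralogs, the most abundant gene of each list and list genes of at least 10 TPM with a 2-fold range. Further list genes that meet none of these rules are also named, among them Pls1, Eps8, Eps8l2, Myo6, Krt8, Myo1a, Muc1 and Prom2. The members, lists and rules were chosen with earlier results of these data known. Coordinates (1-based) and promoter windows are from RefSeq, GRCm38.p6. Calculations used Python, with pandas and numpy, and the code was tested on simulated data. The alternatives tried were 2 other pseudocounts, 2 other filters, 3 other scalings and 2 other folds, and 1 further scaling was added after seeing the data.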

Additional observations from a re-analysis of the deposited data

How the results depend on the processing

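No paired analysis was possible because the table holds 1 column per segment and no values per library, and for the same reason no library was left out.

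Of 300 values (10 genes, 3 contrasts and 10 alternatives), 282 kept their side of the threshold, 13 passed it and 5 fell below it. The 282 include 30 values from each of the 2 other filters. Those filters could not move any value, because all 10 genes reached 10 TPM in some segment. No value that was past 2-fold changed sign. The count of the 10 genes past the threshold was 3 for S1 against S2, 3 for S1 against S3 and 2 for S2 against S3. At 1.5-fold it was 6, 6 and 2. At 4-fold it was 2, 2 and 0. A further scaling, chosen after seeing the data, used median-of-ratios factors over every gene above 0 in the 3 columns. With it the count for S1 against S2 was 8, beside 34.0% of all genes compared. Of the 25489 genes behind those factors, 41.0% were under 1 TPM in each segment, where values are rounded to 1 decimal. That scaling moved the all-gene median of S1 minus S2 from -0.18 to 0.48 and that of S2 minus S3 from 0.12 to -0.34. The share of the 10 genes in the TPM total was 0.120%, 0.127% and 0.133% in S1, S2 and S3 with quantile normalization, and 0.144%, 0.161% and 0.172% after mitochondrially encoded genes, Gpx3 and Kap were removed.

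In the other brush-border lists the counts past 2-fold were 18 for S1 against S2, 28 for S1 against S3 and 7 for S2 against S3. The last was 12 with pseudocount 0.1 and 4 with pseudocount 5, beside 22.9% and 2.83% of all genes compared. Pseudocount 5 also gave 17 for S1 against S3, beside 12.0%. At 1.5-fold the counts were 40 for S1 against S2 and 22 for S2 against S3. At 4-fold they were 9, 9 and 0 in the 3 contrasts. The shares of all genes compared at these folds are those given above. The added scaling gave 36 for S1 against S2 and 15 for S2 against S3, beside 34.0% and 11.2%.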

Other observations

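Apical transporters known to bind PDZ scaffolds were listed as clients of NHERF1 and PDZK1. They are not part of the 9 lists above. Of 8 such genes, 4 had an S1 level 2-fold or more above S2 and 2 had it 2-fold or more below. Of all genes compared, 6.62% were above and 17.7% below. Against S3 the numbers for S1 were again 4 above and 2 below, beside 10.5% and 13.1%. For S2 against S3 they were 3 above and 0 below, beside 8.74% and 2.24%. Their summed level was 11505 TPM in S1, 4079 TPM in S2 and 2005 TPM in S3, most of it Slc34a1, the main sodium-phosphate cotransporter of the kidney, in S1 and S2. Without Slc34a1 the other 7 summed to 1264, 1852 and 1988 TPM, so that the order of the segments was the opposite. The NHERF1 to NHERF4 scaffolds summed to 1836, 1498 and 1645 TPM. Slc15a2, the high-affinity peptide transporter, was at 51.5, 433 and 724 TPM, and Slc22a5, the carnitine transporter OCTN2, at 273.5, 131 and 65.8. Slc34a3 was at 404, 1.3 and 0.1 TPM, Slc9a3 at 52.5, 11.4 and 0.1, and Slc22a12 at 64.8, 687 and 507. Slc17a1, a phosphate and urate transporter, was at 388, 532 and 634 TPM, and Slc22a4 at 29.8, 56.2 and 56.7.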
